A study of Mus musculus with 12 samples.

Results

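The potassium channel genes of the mouse retinal pigment epithelium (RPE) were taken as the entries of the deposited expression table whose symbol begins with Kcn, followed by lower-case letters and a digit, and whose mean over all 12 libraries was at least 10 normalized counts. Of 93 such symbols in the table, 63 passed this limit and 30 did not, out of 17768 genes at or above the limit and 28591 genes in all. The limit lay between *Kcnd2* (a mean of 10.4) and *Kcnv1* (10.7) just inside it and *Kcnb2* (9.57) and *Kcnh6* (9.34) just outside it. The mean was taken over both genotypes, and 4 genes (*Kcnip2*, *Kcnab3os*, *Kcnv1* and *Kcnd2*) passed only through the WT libraries. Of the 63 genes, 61 code for protein and 2, *Kcnq1ot1* and *Kcnab3os*, are noncoding RNAs. The channel subunits form the pores, the auxiliary subunits that ride on them, or the silent subunits that change the behaviour of other pores.

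RNA was sequenced from the RPE of 6 mice of the C57BL/6J strain, called WT, and of 6 rd6 mice of genotype *Mfrp* rd6/rd6. All mice were 1 mo of age, and the labels name no treatment. Every library held the RPE of both eyes of a sample, collected from eyecups after the anterior segment and neural retina had been taken away. The rd6 allele is carried in every cell of the animal and removes a piece of *Mfrp*, a membrane protein of the RPE, without abolishing the transcript. The labels name the replicates by number only, so the p-values measure the spread between these samples.

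Potassium channels let potassium ions pass down their gradient and thereby set the resting voltage of a cell. In the RPE, inwardly rectifying channels of the apical membrane return potassium to the space around the photoreceptors, where light changes its concentration, and work together with the sodium pump, which in this tissue also lies apically. Kir7.1, encoded by *Kcnj13*, is the best known of these channels, and its loss causes inherited retinal degeneration. Voltage-gated Kv channels open on depolarization, Kv7 channels carry an M-type current that is already open near rest, tandem-pore (K2P) channels leak at all voltages, and other channels answer to calcium, sodium or ATP.

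The libraries had between 28907262 and 33152725 reads on genes, so that a single read was worth 0.903 to 1.11 normalized counts, and 3 reads, taken as the floor of detection, 2.71 to 3.32. The *Mfrp* transcript was lower in all rd6 libraries (20442 to 29732 normalized counts) than in any WT library (30132 to 45442). Of 8 RPE markers, 4 were lower in rd6 at a q (the adjusted p-value of limma) below 0.05 and none higher, among them *Rpe65*, the visual cycle isomerase, at 131906 to 193458 in WT and 74331 to 131800 in rd6. *Best1*, a defining chloride channel of the RPE, reached only 9.33 to 30.9 in WT and 15.5 to 48.7 in rd6. In such bulk samples, fewer cells of a type and less RNA per cell cannot be told apart.

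Some libraries stood apart in their levels of markers of other cells. The summed level of 5 ocular surface markers (such as *Krt5* and *Krt12*, keratins of corneal epithelium) ranged from 8.30 to 168673 normalized counts in WT, the highest in library WT 4, and from 449 to 81648 in rd6, the highest in library rd6 5 and the next, 47398, in library rd6 1. Library rd6 5 also carried the highest rd6 sums for 12 rod markers (64389, against 17927 to 24162 in the other rd6 libraries). The same held for 7 inner retinal neuron markers (2730, against 295 to 518). In WT the sums were 34053 to 73898 for rod and 652 to 1292 for inner retinal neuron markers. For rods, rd6 5 thus lay within the WT range and the other rd6 libraries below every WT library. Library WT 4 had a median correlation of 0.914 with the other WT libraries, where all other libraries lay between 0.953 and 0.982 within their group. Counts of channel genes are therefore given with and without these libraries. Microglia or macrophage markers were higher in rd6 for 12 of 13 genes, with sums of 16818 to 22761 in WT and 31833 to 53658 in rd6, and endothelial markers for 6 of 8 (5394 to 10692 against 9447 to 20892). Of the other lists, Müller glia markers were lower for 1 of 5 genes (sums of 57857 to 61318 against 46809 to 53159), Schwann cell or melanocyte markers for 4 of 9 (11298 to 12731 against 7170 to 8556) and fibroblast markers for 1 of 6 (11526 to 17400 against 6144 to 16714). Pericyte or smooth muscle markers were higher for 1 of 9 (10613 to 13417 against 11617 to 13827), and of 5 T cell markers, with sums of 12.4 to 30.1 and 21.9 to 47.4, 1 was abundant enough to test and was not called.

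The comparison of rd6 with WT asked which channel transcripts differ when MFRP is defective. At q below 0.05 in limma, 11 of the 63 channel genes were higher in rd6 (17.5%, where 11.4% of all genes tested were called higher) and 7 were lower (11.1%, against 11.6%), while 45 were not called. Taken in either direction, 18 genes were called (28.6%, against 23.0% of all genes tested). The genes that rose were *Kcnab1*, *Kcne2*, *Kcnj8*, *Kcnj2*, *Kcnh1*, *Kcnn3*, *Kcnc4*, *Kcna7*, *Kcnj15*, *Kcnj11* and *Kcnk6*, and those that fell included *Kcna2*, *Kcnv2*, *Kcnt2*, *Kcnj13* and *Kcns3*. With a change of at least 0.81 on the log2 scale, the fold limit of the study, 9 were higher and 2 lower (backgrounds of 4.69% and 2.12%). This balance rested on library rd6 5, since without it 8 were higher and 10 lower (4.54% and 3.01% of all genes). The 6 rd6 libraries lay wholly above the 6 WT libraries for 4 genes (*Kcnab1*, *Kcne2*, *Kcnj8* and *Kcnj2*) and wholly below them for 2 (*Kcna2* and *Kcnt2*), as they did for 5.77% and 5.67% of all genes tested. The median log2 fold change was −0.12 over the 63 genes and 0.00 over all genes tested.

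**Figure D1:**
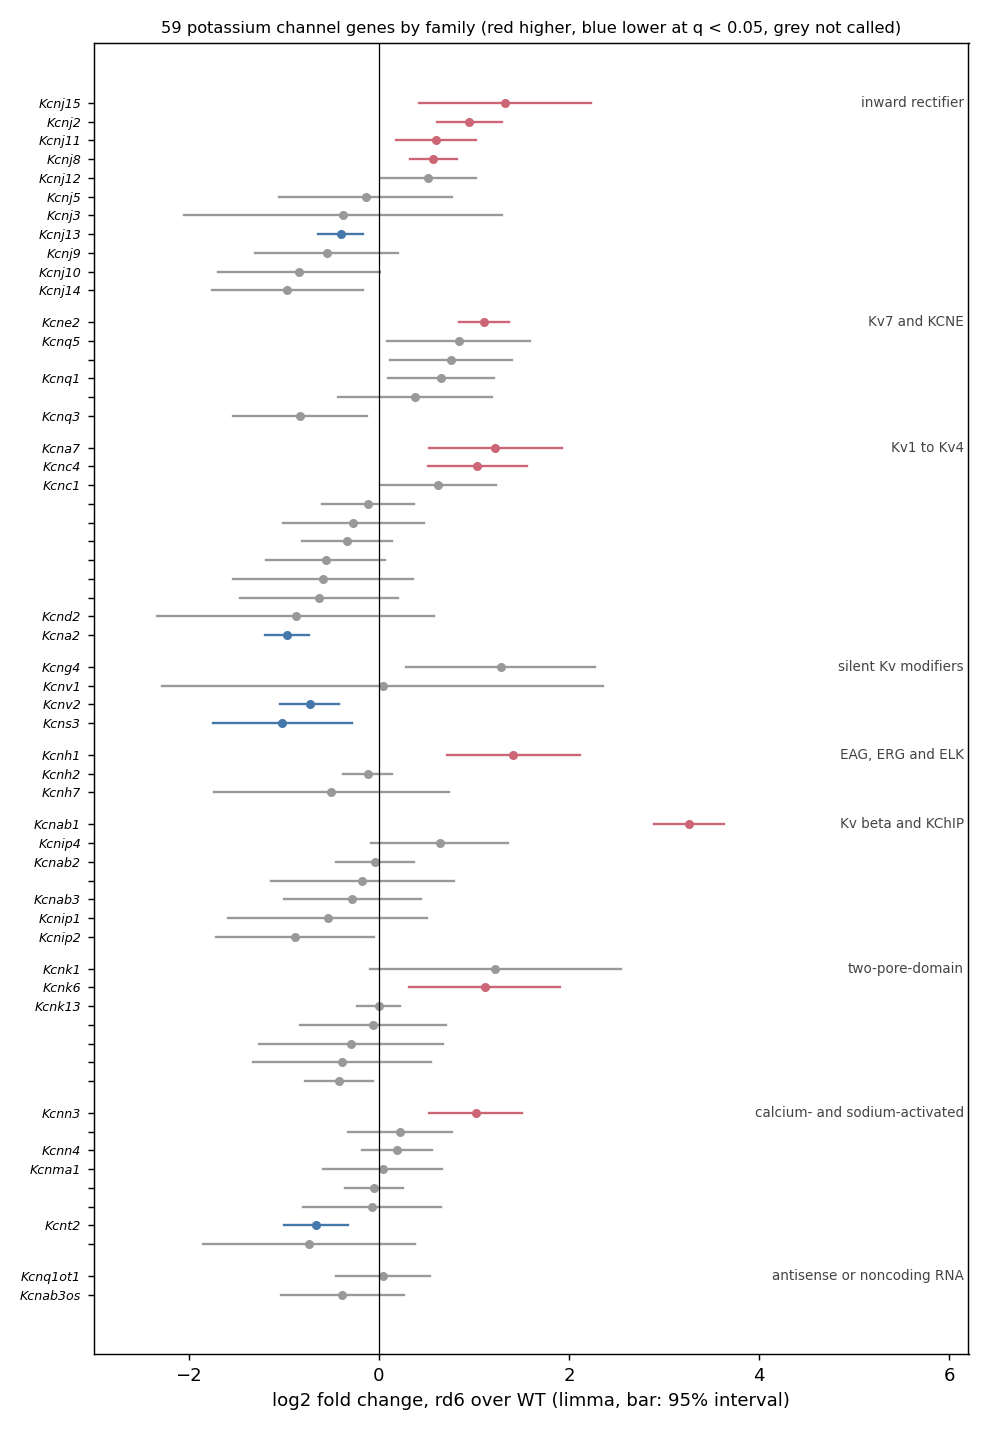
Log2 fold change (rd6 over WT, x axis) of 59 potassium channel genes, grouped by family, with the 95% interval from limma as a bar and names for the genes described; red genes were called higher and blue genes lower at q below 0.05, and grey genes were not called. *Kcnab1* stands at 3.26, beyond all other genes, while the called falls drawn lie between −1.02 and −0.40.

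The count of called genes depended on the libraries that stood apart. Libraries WT 4 and rd6 5 were left out in a setting chosen after the data were seen. There 33 channel genes were called, 14 higher and 19 lower (25.7% of all genes tested, 12.6% higher and 13.1% lower). *Kcnip2*, among these 33, had passed the limit on the mean only through the WT libraries. Without rd6 1 as well, 24 were called, 10 higher and 14 lower (22.4% of all genes, 10.8% and 11.6%). With at least 0.81 on the log2 scale, 13 were higher and 13 lower in the first of these settings (5.47% and 3.11% of all genes), and 9 and 8 in the other (4.51% and 3.06%). Of the 18 genes called with all libraries, 17 were also called without WT 4 and rd6 5 and 13 without rd6 1 as well. Library rd6 5 held the highest value of 24 of the 63 genes, 22 of them among the 45 not called. How many of all genes tested had their highest value there was not counted. The part of retinal RNA in these values of library rd6 5 was not tested. With all libraries, edgeR (TMM) on the recovered reads called 16 channel genes and 22.9% of all genes, and DESeq2 called 19 and 22.2%, with 15 and 17 of the 18 among them. Calls of 10 genes (*Kcnab1*, *Kcne2*, *Kcnj8*, *Kcnj2*, *Kcnh1*, *Kcnn3*, *Kcnc4*, *Kcna2*, *Kcnv2* and *Kcnt2*) were kept in every alternative that was run.

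Per kilobase of exon, *Kcnj13* was by far the most abundant potassium channel transcript of these samples, with a mean of 13723 normalized counts per kb, 78.4% of the sum over all 63 genes. The 12 highest genes also included *Kcnj8* (249), *Kcna2* (234), *Kcne2* (224) and *Kcnab1* (210 per kb), whose mean levels lay close together, and *Kcnv2*, *Kcnk13*, *Kcnh2* and *Kcnj14*, between 132 and 91.8 per kb. *Kcnab1* was at 40.6 per kb in WT and 379 in rd6.

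**Figure D2:**
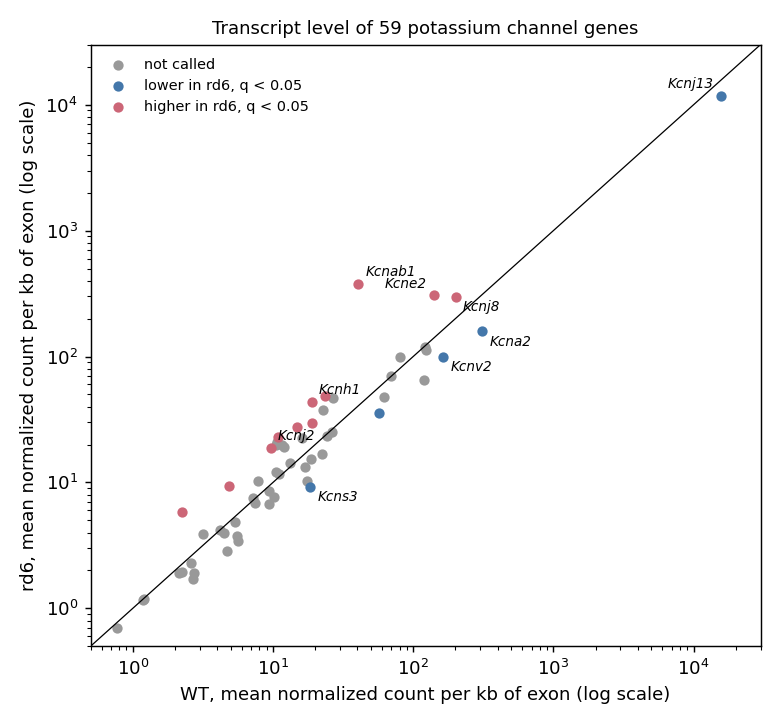
Mean level of 59 potassium channel genes in rd6 (y axis) against WT (x axis), both as normalized counts per kb of exon on log scales, with 1 point per gene and the line of equal levels; genes called at q below 0.05 are red (higher in rd6) or blue (lower). *Kcnj13* lies far above the other genes drawn in both genotypes, and *Kcnab1* lies farthest from the line.

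The windows of 250 bases upstream of the transcript start are shown for *Kcnj13*, the most abundant member, and for *Kcnab1* and *Kcne2*, among the members that rose with no overlap between the groups. They were read from RefSeq on GRCm38.p6 and run 5′ to 3′ on the strand of the gene. *Kcnj13* has its window at chr1:87394730-87394979 (minus strand), *Kcnab1* at chr3:65108764-65109013 (plus strand, 1 of 3 RefSeq starts, with the window ending 370 bases short of the GENCODE gene start) and *Kcne2* at chr16:92292139-92292388 (plus strand, 1 of 2 starts). Capitals mark matches on either strand to CACGTG (its own reverse complement) and CATGTG, the core letters that MITF, a factor of pigment cells, is known to bind, and to TAATCC, letters bound by OTX2. No window held more than 1 match, so that none overlapped.
Kcnj13: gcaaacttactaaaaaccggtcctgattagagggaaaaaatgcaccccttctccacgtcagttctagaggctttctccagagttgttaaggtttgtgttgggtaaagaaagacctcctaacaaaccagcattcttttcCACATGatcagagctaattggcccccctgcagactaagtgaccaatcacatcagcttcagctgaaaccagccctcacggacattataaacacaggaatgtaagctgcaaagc
Kcnab1: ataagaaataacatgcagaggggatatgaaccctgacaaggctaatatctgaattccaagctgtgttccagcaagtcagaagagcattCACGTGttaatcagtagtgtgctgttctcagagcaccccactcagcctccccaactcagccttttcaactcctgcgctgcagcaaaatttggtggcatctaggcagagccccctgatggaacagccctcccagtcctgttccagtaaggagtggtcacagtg
Kcne2: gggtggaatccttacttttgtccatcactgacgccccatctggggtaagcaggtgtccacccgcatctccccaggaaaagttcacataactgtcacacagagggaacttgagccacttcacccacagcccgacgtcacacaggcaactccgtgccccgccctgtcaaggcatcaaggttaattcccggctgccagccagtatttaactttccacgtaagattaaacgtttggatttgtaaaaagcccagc
The *Kcnj13* window held CATGTG on the opposite strand, beginning 112 bases before the start, and the *Kcnab1* window held CACGTG, beginning 162 bases before the start. None of the letters searched was in the *Kcne2* window. Of 32851 RefSeq windows of this length, 6.02% held CACGTG, 12.3% CATGTG and 6.25% TAATCC, so that a match describes the letters of a window and no more.

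Among the inward rectifiers, 11 of 14 symbols were members, of which 4 rose (36.4%), 1 fell (9.09%) and 6 were not called. The counts of this and the other families stand against 11.4% of all genes tested called higher and 11.6% called lower. *Kcnj13*, which lies on chromosome 1 from 87386363 to 87394729 (GRCm38), gave 16201 to 24061 normalized counts in WT (median 19176) and 12531 to 17462 in rd6 (median 14743). All 6 rd6 libraries lay below the WT median, although the ranges of the groups overlapped. The fall was small, by 0.40 ± 0.11 (SE) on the log2 scale, or 1.32-fold (q = 0.0187 in limma). Its call was lost in 1 of 24 alternatives, limma with the replicate number as a block (q = 0.0777). An exact permutation test over the 12 libraries gave p = 0.00866, where 0.00216 is the smallest value this design allows. An exon of *Gigyf2* overlaps *Kcnj13* on the opposite strand, so the assignment of reads to the pair is uncertain and was not tested. *Gigyf2* was at 1290 to 1544 in WT and 1164 to 1571 in rd6 (q = 0.614 in limma).

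As a ratio to *Actb* within each library, *Kcnj13* was at 1.02 ± 0.222 in WT and 0.803 ± 0.152 in rd6 (mean ± SD, n = 6), a ratio of means of 0.787 that the exact two-sided permutation test did not call (p = 0.0779). With *Gapdh* as the reference the ratio of means was 0.616 (exact p = 0.00216) and with no reference 0.755 (exact p = 0.00866). Of the reference genes, *Actb*, encoding β-actin, had a log2 fold change of −0.06 (q = 0.684 in limma), and *Gapdh*, a glycolytic enzyme, rose by 0.29 on this scale (q = 0.0265). The fall of *Kcnj13* stood beside falls of 4 of the 8 RPE markers, whose part in it was not tested.

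The inward rectifiers that rose were less abundant. *Kcnj8* encodes Kir6.1, the pore of the ATP-sensitive channel best known from vascular smooth muscle and pericytes. It was at 366 to 611 normalized counts in WT (median 525) and 633 to 842 in rd6 (median 771), a rise of 0.57 ± 0.12 on the log2 scale (q = 0.00339 in limma) with no overlap between the groups. *Kcnj11*, the Kir6.2 pore of the same kind of channel, was at 51.3 to 89.8 in WT (median 68.5) and 81.5 to 164 in rd6 (median 103), with a log2 fold change of 0.60 ± 0.19 (q = 0.0400). The call of *Kcnj11* was lost in 11 of 24 alternatives, including those without WT 4 and rd6 5 (0.60, q = 0.0706), without rd6 1 as well (0.43, q = 0.138) and without any 1 of WT 1, WT 5, WT 6, rd6 1, rd6 2, rd6 3 or rd6 5. All 6 rd6 libraries lay above the WT median for both pores. *Abcc9*, the sulfonylurea receptor that completes such channels in vessels, also rose (101 to 142 against 130 to 215, log2 fold change 0.46, q = 0.0288), a call lost in 7 of 24 alternatives, including those without WT 4, rd6 1 and rd6 5 (0.42, q = 0.0726) and without any 1 of WT 1, WT 2, WT 6, rd6 1 or rd6 2. *Abcc8*, its counterpart of endocrine cells and neurons, had a mean of 9.43 over all libraries, under the limit, with single libraries from 2.98 to 18.7. Endothelial markers were higher in rd6 for 6 of 8 genes and pericyte markers for 1 of 9, and their part in the rise of *Kcnj8* was not tested.

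*Kcnj2* encodes Kir2.1, a strong inward rectifier that holds the resting voltage in muscle and in many other cells. Its level was 38.7 to 61.2 normalized counts in WT (median 53.3) and 81.5 to 129 in rd6 (median 100.1). The ranges did not overlap, and the log2 fold change was 0.95 ± 0.16 (q = 0.000926 in limma). *Kcnj15*, the Kir4.2 channel of epithelia, was low throughout, at 5.54 to 24.3 in WT (median 12.1) and 15.3 to 57.8 in rd6 (median 39.8), and rose by 1.33 ± 0.42 (q = 0.0365) with overlapping ranges. Its call was lost in 11 of 23 alternatives, including the one without WT 4, rd6 1 and rd6 5 (q = 0.0797) and those without any 1 of WT 1, WT 3, WT 5, WT 6, rd6 1, rd6 2, rd6 5 or rd6 6.

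*Kcnj14*, encoding Kir2.4, was among the 12 most abundant members but was not called, at 168 to 457 normalized counts in WT (median 329) and 94.8 to 430 in rd6 (median 135), with a log2 fold change of −0.96 (95% interval −1.75 to −0.17, q = 0.0768 in limma). Its highest rd6 value came from library rd6 5, and the other 5 rd6 libraries did not exceed 159. Without libraries WT 4 and rd6 5 its log2 fold change was −1.14 (q = 0.00957). *Kcnj10*, named here after its values were seen because its Kir4.1 channel is the main potassium conductance of Müller glia, was at 48.7 to 142 in WT and 23.3 to 98.4 in rd6 (q = 0.146). The remaining uncalled inward rectifiers were *Kcnj3*, *Kcnj5*, *Kcnj9* and *Kcnj12*, with log2 fold changes from −0.55 to 0.52.

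**Figure D3:**
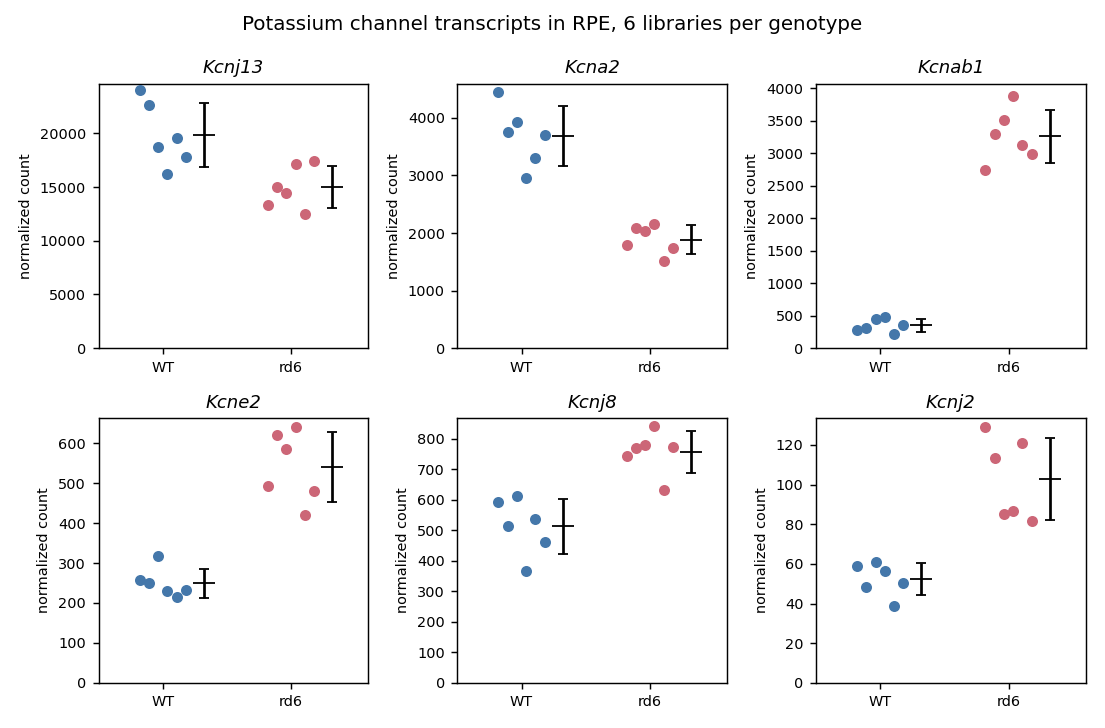
Normalized counts (y axis, from 0) of 6 potassium channel genes in the 6 WT (blue) and 6 rd6 (red) libraries, 1 point per library, with the mean and SD beside each group. *Kcna2* in rd6 lies wholly below WT, *Kcnab1*, *Kcne2*, *Kcnj8* and *Kcnj2* lie wholly above it, and *Kcnj13* overlaps.

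Kv7 pores and KCNE subunits made up 8 members, of which 1 rose and none fell. *Kcne2* encodes a small membrane subunit that binds Kv7 and other Kv pores and is prominent in the choroid plexus and stomach. It was at 214 to 316 normalized counts in WT (median 241) and 421 to 641 in rd6 (median 539). The groups did not overlap, with a rise of 1.11 ± 0.12 on the log2 scale, or 2.15-fold (q = 3.3e-05 in limma). *Kcnq1*, a pore that pairs with KCNE subunits in epithelia, was at 54.7 to 116 in WT (median 94.9) and 93.6 to 279 in rd6 (median 129), with a log2 fold change of 0.65 ± 0.26 that limma did not call (q = 0.0873), whereas DESeq2 on the recovered reads did (q = 0.0359). *Kcnq1* shares exon sequence on the opposite strand with *Kcnq1ot1*, a noncoding RNA (54.2 to 162 in WT and 94.0 to 141 in rd6), and the assignment of reads to the pair is uncertain.

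Of the other Kv7 pores, *Kcnq5*, which carries an M-type current, was at 42.4 to 177 normalized counts in WT (median 81.4) and 100.3 to 237 in rd6 (median 123), with a log2 fold change of 0.84 (95% interval 0.09 to 1.59, q = 0.101 in limma). *Kcnq3*, a pore subunit of the M current of neurons, was at 32.9 to 46.3 in WT (median 40.6) and 9.28 to 53.3 in rd6 (median 21.9), with a log2 fold change of −0.83 (q = 0.0843). Neither was called with all libraries, and both had their highest rd6 value in library rd6 5. The highest WT value of *Kcnq5* was in library WT 4 (177, where the next was 109). Without libraries WT 4 and rd6 5, the log2 fold changes were 0.92 (q = 0.0367) for *Kcnq5* and −1.07 (q = 0.0163) for *Kcnq3*, and without rd6 1 as well they were 0.74 (q = 0.0768) and −0.99 (q = 0.0371). Both were named after their values were seen.

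Of the Kv1 to Kv4 pores, 13 were members, of which 2 rose (15.4%, against 11.4% of all genes tested) and 3 fell (23.1%, against 11.6%). The fall of *Kcna2*, which encodes the Kv1.2 delayed rectifier of axons, had the lowest q among the 7 falls, with 2965 to 4450 normalized counts in WT (median 3735) and 1511 to 2152 in rd6 (median 1912). No rd6 library reached the lowest WT library, and the log2 fold change was −0.96 ± 0.11, a fall of 1.95-fold (q = 3.6e-05 in limma).

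The Kv1 to Kv4 pores that rose were *Kcnc4* and *Kcna7*. *Kcnc4* encodes Kv3.4, a rapidly inactivating pore, and gave 52.3 to 112 normalized counts in WT (median 92.1) and 106 to 270.0 in rd6 (median 167), with a log2 fold change of 1.04 ± 0.24 (q = 0.00816 in limma). *Kcna7*, the Kv1.7 pore, gave 9.86 to 44.4 in WT (median 18.9) and 38.0 to 59.8 in rd6 (median 51.2), with a log2 fold change of 1.22 ± 0.32 (q = 0.0157) that was not called without WT 4, rd6 1 and rd6 5 (1.11, q = 0.0695). For both genes every rd6 library exceeded the WT median and the ranges met only at their edges. The 8 uncalled pores of this family had log2 fold changes from −0.88 (*Kcnd2*) to 0.62 (*Kcnc1*). Of these, *Kcnd2* had passed the limit on the mean only through the WT libraries. *Kcna3*, the Kv1.3 pore of T cells and activated microglia, had a mean of 1.15 normalized counts, under the floor of 3 reads, and was no member.

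Silent subunits form no channel alone and alter other Kv pores when they join them. Of 10 symbols 4 were members, of which 2 fell and none rose. *Kcnv2*, which encodes Kv8.2, a subunit known from photoreceptors, was at 699 to 1004 normalized counts in WT (median 837) and 397 to 739 in rd6 (median 483), a fall of 0.73 ± 0.14 on the log2 scale (q = 0.00298 in limma). All 6 rd6 libraries lay below the WT median. Its highest rd6 value was again in library rd6 5, and the other rd6 libraries reached at most 517, below every WT library. *Kcns3*, the Kv9.3 subunit, was at 28.2 to 85.1 in WT (median 59.6) and 13.4 to 52.6 in rd6 (median 27.5), a fall of 1.02 ± 0.34 (q = 0.0465) whose call was lost in 16 of 24 alternatives, such as edgeR with TMM (q = 0.0517) and any single library left out but WT 4 or rd6 2. *Amigo1*, an auxiliary membrane protein of Kv pores, fell by 0.30 (557 to 611 against 416 to 555, q = 0.00994). Rod markers were lower in rd6 for 4 of 12 genes. Their sums were 34053 to 73898 in WT, 64389 in library rd6 5 and 17927 to 24162 in the other rd6 libraries. The part of rod RNA in the fall of *Kcnv2* was not tested.

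The largest change of any member was in an auxiliary subunit. *Kcnab1*, on chromosome 3 from 65109384 to 65378223, encodes a cytoplasmic β subunit of the aldo-keto reductase fold that binds Kv1 pores, including Kv1.2, and speeds their inactivation. It gave 218 to 476 normalized counts in WT (median 332) and 2736 to 3885 in rd6 (median 3211). The lowest rd6 library thus lay far above the highest WT library, and the log2 fold change was 3.26 ± 0.17, or 9.59-fold (q = 6.2e-08 in limma). An exact permutation test gave its smallest possible p of 0.00216. Leaving out libraries WT 4 and rd6 5 gave a log2 fold change of 3.37. An exon of the transcript *A330015K06Rik* overlaps *Kcnab1* on the opposite strand.

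The other β subunits and the KChIP proteins, which bind Kv4 pores and calcium, were not called, 6 of the 7 members of this family. *Kcnab2* was at 306 to 496 normalized counts in WT and 312 to 346 in 5 rd6 libraries, with 701 in library rd6 5, and had a log2 fold change of −0.04 (95% interval −0.45 to 0.37, q = 0.894 in limma). *Kcnab3* had one of −0.28 (q = 0.584). The rise was thus called for 1 of 3 β subunit genes. *Kcnab2* and *Kcnab3* are named after their values were seen, and *Kcnab3* overlaps the antisense *Kcnab3os*. The KChIP genes *Kcnip1* to *Kcnip4* ranged from −0.88 (*Kcnip2*, which passed the limit only through the WT libraries) to 0.64 (*Kcnip4*).

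Of the EAG, ERG and ELK channels, 3 of 8 symbols were members and 1 rose. *Kcnh1*, the EAG channel Kv10.1, was at 64.2 to 331 normalized counts in WT (median 102) and 236 to 424 in rd6 (median 319), a rise of 1.41 ± 0.32 on the log2 scale (q = 0.00733 in limma). Library WT 4 alone made the ranges overlap, since the other WT libraries did not exceed 153. *Kcnh2*, the ERG channel of cardiac repolarization, was at 476 to 732 in WT (median 564) and 429 to 619 in rd6 (median 563), with a log2 fold change of −0.12 and a 95% interval of −0.38 to 0.14 (q = 0.508). *Kcnh7*, the remaining member, was near the limit with 1.94 to 37.9 over all libraries.

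The K2P leak channels had 7 members of 12 symbols, and 1 rose. *Kcnk6* (TWIK2, a channel of macrophages and endosomes) was at 31.1 to 177 normalized counts in WT (median 40.6) and 75.0 to 157 in rd6 (median 113), with a log2 fold change of 1.11 ± 0.37 (q = 0.0452 in limma). This call was lost in 17 of 24 alternatives, among them edgeR with TMM (0.87, q = 0.158), DESeq2 (0.87, q = 0.110) and any single library left out but WT 4 or rd6 3. *Kcnk1* (TWIK1), named after its values were seen, was at 29.6 to 732 in WT (median 85.9) and 161 to 306 in rd6 (median 223), and was not called (1.23, 95% interval −0.09 to 2.54, q = 0.170). Both genes had their highest value in library WT 4, where the ocular surface keratins were highest. Without that library and rd6 5, the log2 fold changes were 1.44 (q = 0.000563) for *Kcnk6* and 1.80 (q = 0.00332) for *Kcnk1*, while edgeR with TMM on all libraries gave 0.31 (q = 0.796) for *Kcnk1*. The part of ocular surface RNA in these values was not tested.

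*Kcnk13*, which encodes THIK1, the main leak channel of resting microglia, was not called. It was at 273 to 432 normalized counts in WT (median 389) and 343 to 426 in rd6 (median 366), with a log2 fold change of 0.00 and a 95% interval of −0.23 to 0.23 (q = 0.993 in limma), while 12 of 13 microglia or macrophage markers rose, for example *Cx3cr1* by 3.44 (q = 5.1e-06). *Kcnn4*, the calcium-activated channel of T cells and microglia, was at 41.8 to 74.7 in WT and 42.1 to 76.3 in rd6, with an interval of −0.17 to 0.56 (q = 0.448). It was named, like *Cx3cr1*, after its values were seen.

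Calcium- and sodium-activated channels had 8 members, of which 1 rose and 1 fell. *Kcnn3*, the small-conductance channel SK3 known from endothelium and neurons, was at 32.1 to 98.1 normalized counts in WT (median 43.8) and 82.2 to 113 in rd6 (median 99.6). It rose by 1.02 ± 0.23 on the log2 scale (q = 0.00646 in limma), and apart from library WT 4 the highest WT value was 49.8. *Kcnt2*, the sodium-activated channel Slick, was at 301 to 539 in WT (median 364) and 169 to 294 in rd6 (median 256), a fall of 0.66 ± 0.15 (q = 0.00807) with no overlap between the groups. *Kcnma1*, the large-conductance BK pore, was not called (80.9 to 210 against 82.5 to 258, q = 0.933), and was named after its values were seen. Neither noncoding RNA was called.

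**Figure D4:**
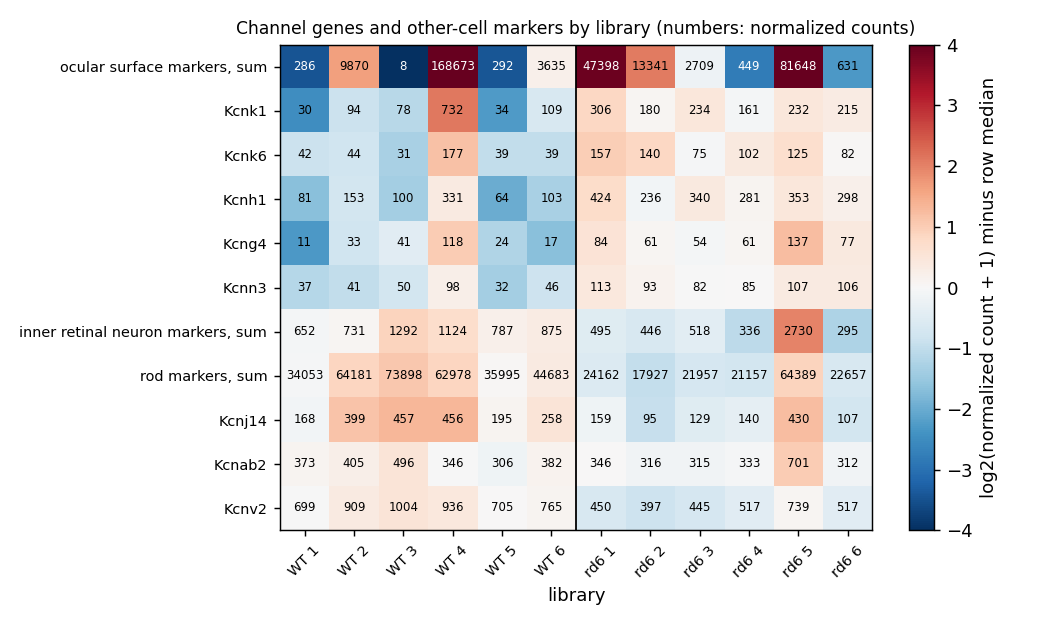
Summed markers of other cells and a selection of channel genes (y axis) in each of the 12 libraries (x axis). The channel genes were picked after their values were seen, as high in library WT 4 or rd6 5 within their genotype. Colours give log2(normalized count + 1) minus the median of the line, and the printed numbers are normalized counts. Ocular surface markers and *Kcnk1*, *Kcnk6*, *Kcnh1*, *Kcng4* and *Kcnn3* are high in library WT 4 among the WT libraries, and retinal markers, *Kcnj14*, *Kcnab2* and *Kcnv2* are high in library rd6 5 among the rd6 libraries.

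Of the 45 channel genes that were not called, 12 had a 95% interval that lay within a log2 fold change of 0.81 either way, *Kcnh2* and *Kcnk13* among them. For the other 33 the libraries did not exclude a change of that size. Overlap of exons with another annotated gene concerned 25 of the 63 members. Reads were counted by the authors at the standard parameters of Rsubread, and the sources used here do not name the strand setting. Of the 30 symbols below the limit, 17 had a mean under 3 normalized counts over all libraries.

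Channels work beside pumps and transporters, and 57 genes for channel partners, the sodium pump, chloride cotransporters, chloride and calcium channels, bicarbonate, lactate and water transport and HCN and CNG channels were taken as a list. Of 52 that could be tested, 9 rose and 9 fell at q below 0.05 in limma (23.0% of all genes tested were called, 11.4% higher and 11.6% lower). Those that fell numbered 18 without WT 4 and rd6 5, 16 without rd6 1 as well and 16 without WT 4 alone (13.1%, 11.6% and 12.9% of all genes), and those that rose 8 or 9. Of the 9 sodium pump subunits 3 rose and none fell. One of them, *Atp1b2*, a β subunit, was at 11919 to 15667 normalized counts in WT and 18014 to 20958 in rd6 (log2 fold change 0.42, q = 0.00117), and *Fxyd5*, a regulator of the pump, was at 170 to 339 in WT and 274 to 716 in rd6 (0.79, q = 0.0331). The call of *Fxyd5* was lost in 10 of 24 alternatives, including those without WT 4, rd6 1 and rd6 5 (0.76, q = 0.0625) and without any 1 of WT 1, WT 2, WT 4, WT 6, rd6 1, rd6 2, rd6 3 or rd6 6. Of the 4 cotransporters, *Slc12a2*, which brings sodium, potassium and chloride into the cell, rose by 0.47 on the log2 scale (q = 0.00341).

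The largest rises of the list were in cation channels open to potassium and in transporters. *Hcn4*, the pacemaker channel, was at 6.80 to 15.5 normalized counts in WT (median 9.58) and 73.6 to 177 in rd6 (median 135), a log2 fold change of 3.53 ± 0.24 (q = 5.3e-07 in limma). *Cngb3*, the cone cyclic nucleotide-gated subunit, was at 6.64 to 46.6 in WT (median 22.1) and 145 to 319 in rd6 (median 218), a change of 3.21 (q = 5.5e-05). Neither gene had overlapping groups. Of the 7 HCN and CNG genes tested, 1 fell, *Hcn2*, at 400.1 to 581 in WT and 366 to 484 in rd6 (−0.31, q = 0.0325), a call lost in 11 of 24 alternatives, including those without any 1 library but WT 4, rd6 4 or rd6 6. *Slc16a3*, a lactate transporter of glycolytic cells, rose by 1.00 (72.0 to 162 against 180 to 265, q = 0.00267), and *Aqp1*, a water channel, by 0.93 (900.0 to 2193 against 1628 to 3781, q = 0.0132). Of 7 cone markers tested, a list without *Cngb3*, 1 was higher and 2 were lower in rd6.

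The falls of the list included *Slc16a1*, the monocarboxylate transporter that takes up lactate, at 37619 to 54015 normalized counts in WT (median 50255) and 18050 to 30789 in rd6 (median 27229), with a log2 fold change of −0.93 ± 0.13 (q = 0.000201 in limma). *Cacna1c*, the L-type calcium channel pore, fell by 0.83 (694 to 1188 against 397 to 550.0, q = 0.000602). Both genes were lower in every rd6 library than in any WT library. *Cacna2d4*, a calcium channel subunit of photoreceptors, fell by 0.85 (187 to 412 against 112 to 321, q = 0.0446), with the highest rd6 value in library rd6 5. Its call was lost in 14 of 24 alternatives, such as edgeR with TMM (q = 0.0685) and any single library left out but WT 1, WT 5 or rd6 5. *Trpm7*, a divalent cation channel, fell by 0.43 (3518 to 5002 against 2225 to 3640, q = 0.0238), a call lost without WT 1, WT 2 or rd6 6. *Atp1b2*, *Fxyd5*, *Slc12a2*, *Abcc8*, *Abcc9*, *Amigo1*, *Hcn2* and *Gigyf2* were named after their values were seen.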

How the data were processed

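Total RNA of the RPE of 6 WT and 6 rd6 mice was sequenced as stranded total-RNA libraries in read pairs. Alignment to mm10 and counting were done by the authors with Rsubread at its standard parameters, the version being not given in the sources used here. The deposited values of each library are a signal, that is, the reads of a gene after division by a DESeq2 size factor. The authors also deposited their own DESeq2 results, namely the log2 fold change and its error, a Wald statistic (a score) and p-values. None of these were used. In each library 100% of the signal values were whole multiples of the value of a single read (within 0.001 reads), so reads were recovered. Of 28596 entries, 5 repeats under 4 identifiers were dropped.

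The test was limma 3.58.1 in R 4.3.3 (lmFit, eBayes with trend) on log2(value + 1), with genotype as the only term, over 17768 genes with a mean of at least 10. P-values were adjusted over all of these by the Benjamini-Hochberg method (q), and genes were called at q below 0.05. Fold changes on this scale understate those of low genes. Library depth was 28907262 to 33152725 reads on genes, and floors cover counting error only. Ratios and single genes were compared with the exact two-sided permutation test over the 924 splits. Gene positions and exon lengths are from GENCODE M21. Alternatives were pseudocounts of 0.1 and 10, other filters on low values, TMM rescaling, edgeR 4.0.16 with TMM, RLE or upper quartile and DESeq2 1.42.0 on the reads, the replicate number as a block, and each library left out. Leaving out WT 4 and rd6 5, with or without rd6 1, was added after seeing the data. The tests were tried on simulated data.

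The members, marker lists and partner list were chosen with earlier results of these data known. Named were *Kcnj13*, *Kcnq1*, every called member, the 12 highest members per kb, the 2 members on either side of the limit, up to 4 called partner genes in each direction, *Mfrp* and *Actb*. A few of these genes are not reported here, nor drawn in the figures. Other names were chosen after their values were seen and are named as such, besides the overlapping or related genes and markers given for reference.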

Additional observations from a re-analysis of the deposited data

Results flagged for a closer look

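Of 56 groups of 6 libraries, formed by 28 genes in each genotype, 6 held a library whose gap to the nearest other, divided by the range of the group, was above the 95% critical value of Dixon's test. Chance flags about 5% of groups. All 6 came from the libraries WT 4 and rd6 5.

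In library WT 4, *Kcnk6* was at 177 normalized counts, where the next WT library had 44.4 (gap over range 0.909), *Kcnn3* at 98.1 against 49.8 (0.732) and *Kcnh1* at 331 against 153 (0.668). Its summed ocular surface markers were 168673, and their part in these values was not tested.

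In library rd6 5, *Kcnj14* was at 430 normalized counts, where the next rd6 library had 159 (0.809), *Kcnv2* at 739 against 517 (0.648) and the partner gene *Cacna2d4* at 321 against 179 (0.683). The rod marker sum of this library was 64389, within the WT range of 34053 to 73898. Its sums of inner retinal neuron markers (2730) and ocular surface markers (81648) were the highest of the rd6 libraries. The part of any of these in the values was not tested either.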

How the results depend on the processing

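Over all alternatives, the counts of called genes and the *Kcnj13* ratio gave 126 values near those reported, 31 that moved by more than 1.5 times and 3 ratios that passed the threshold. Without WT 4 and rd6 5, and without rd6 1 as well, channel genes called lower numbered 19 and 14 in place of 7, those lower by at least 0.81 on the log2 scale 13 and 8 in place of 2, and partner genes called lower 18 and 16 in place of 9. Leaving out each library in turn gave 8 to 14 channel genes higher and 4 to 15 lower (15 without rd6 5, and 4 with any 1 of WT 1, WT 2, WT 3, rd6 1, rd6 3 or rd6 6 left out), where 9.18% to 13.7% of all genes were higher and 8.97% to 12.9% lower (11.4% without rd6 5). With at least 0.81 it gave 7 to 12 higher and 1 to 10 lower (10 without rd6 5, and 1 with any other library left out but WT 4 or rd6 2), against 4.09% to 5.92% and 1.77% to 3.01% of all genes, and for partner genes 6 to 8 higher and 6 to 16 lower (16 without WT 4, where 12.9% of all genes were lower). Genes lower by at least 0.81 numbered 1 with no filter, with edgeR under TMM, RLE or upper quartile and with the replicate block. The cause of these moves was not tested. edgeR with TMM called 16 of the 63 channel genes (15 of them among the 18, and 22.9% of all genes) and DESeq2 19 (17 among the 18, and 22.2%). The replicate numbers did not pair the samples (correlations of same-numbered deviations −0.743 to 0.315), and with the replicate block 11 channel genes were called, all among the 18 (16.6% of all genes), of which 3 were lower, and 5 partner genes higher. *Kcnj13* (q = 0.0777), *Aqp1* (q = 0.0598), *Abcc9* (q = 0.0845), *Fxyd5* (q = 0.0825) and *Hcn2* (q = 0.108) were not called with the replicate block, nor were *Kcnj11*, *Kcnj15*, *Kcnk6*, *Kcns3* and *Cacna2d4*, and the paired ratio to *Actb* had an exact p of 0.125. The ratio was 0.616 to *Gapdh*, 0.755 with no reference and 0.743 without WT 4 (exact p = 0.0260), and 0.743 to 0.840 with each library left out. Of the fold changes of single named genes under the alternatives, 579 kept direction and side of the threshold, 75 lost the threshold and 5 passed it anew. Among these 28 genes *Kcnk13*, never called and near 0, was the one that changed sign, with 0.025 under edgeR upper quartile and values on both sides of 0, from −0.091 to 0.041, with each library left out. Other uncalled genes, such as *Kcnab2* and *Kcnma1*, also changed sign in some alternatives.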
